A study of Mus musculus and Homo sapiens with 19 samples.

Results

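A set of 10 sialyltransferase genes was followed through cultured breast cancer and endothelial cells. They were St3gal1, St3gal2, St3gal3, St3gal4, St3gal5, St3gal6, St6gal1, St6galnac4, St6galnac5 and St6galnac6, chosen by gene symbol, and all 10 were found among the 24421 genes of the knockdown table, the 57992 of the human table and the 55573 of the co-culture tables. In the first experiment 4T1, a mouse mammary tumour line, was transduced with an shRNA against PHGDH (shPHGDH, 3 libraries), against 4T1 with a scrambled shRNA (shSCR, 3 libraries), both in the pLKO vector. The human breast cancer line MDA-MB-231 was labelled as overexpressing PHGDH from a pLHCX vector (3 libraries), against control cells (3 libraries). In the third experiment 4T1 or EMT6.5, another mouse mammary tumour line, shared a culture with the mouse endothelial line Bend3 and was sorted from it by flow cytometry, so that 1 library each was made of 4T1 with Bend3, EMT6.5 with Bend3, Bend3 with 4T1 and Bend3 with EMT6.5, against 4T1, EMT6.5 and Bend3 grown alone (1 library per line). The labels do not say whether replicates came from separate cultures or how many shRNAs or clones were used, so p-values speak only of how far these libraries spread, which may be technical.

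Sialyltransferases sit in the Golgi and move sialic acid from its activated form, CMP-sialic acid, to the outer ends of the sugar chains on proteins and lipids. The ST3Gal, ST6Gal and ST6GalNAc families differ in the sugar and the position they join it to, and the sialic acid caps they build are read by selectins, siglecs and galectins. In tumours they are known for their part in adhesion to endothelium and in immune recognition. PHGDH is the first enzyme of serine synthesis from a glycolytic intermediate.

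Gene counts per library summed to 12.7 M to 20.5 M in the knockdown, 19.5 M to 23.8 M in MDA-MB-231 and 4.27 M to 7.67 M in the co-culture set. Levels are CPM, read counts relative to library sizes scaled by TMM, as parts in 1 M, and a gene was called when edgeR's quasi-likelihood test gave a Benjamini-Hochberg adjusted p under 0.05 over all genes tested. Phgdh stood at 20.7, 20.21 and 21.7 CPM in shPHGDH, against 167, 173 and 163 CPM in shSCR. PHGDH in MDA-MB-231 went against its label, with 5.99, 4.53 and 5.72 CPM in the libraries labelled PHGDH-overexpressing and 15.5, 15.7 and 18.3 CPM in the controls (log2 -1.61, edgeR adjusted p = 5.76e-10). Every direction below in MDA-MB-231 is therefore given for the labelled libraries and not for a PHGDH level. The endothelial marker list, 10 genes, summed to 9970 to 12600 CPM in the Bend3 libraries and to 66.1 to 179 CPM in the tumour cells of that set, while the 8 epithelial markers summed to 1760 and 1270 CPM in 4T1 (with Bend3 and alone) and 500.0 and 553 CPM in EMT6.5, where Cldn7 and Esrp1 were at 0.

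St6gal1 and St3gal6 gave the largest rises of the 9 members tested after the knockdown. Both lie on mouse chromosome 16, St6gal1 from 23224740 to 23360350 on the plus strand and St3gal6 from 58468125 to 58524243 on the minus strand (GRCm38). St6gal1 encodes the main enzyme that caps the lactosamine ends of N-glycans in the ST6Gal linkage, and St3gal6 one of the enzymes that cap the same ends in the ST3Gal linkage. The 250 bases before annotated starts are shown for these genes because they moved most, and for St6galnac4 as a member that moved little. The sequences are from RefSeq (GRCm38.p6), each read 5′ to 3′ on the strand of its gene. Capitals mark the motifs GGGCGG (GC box) and CCAAT on either strand.
St6gal1 start 1, chr16:23224490-23224739, plus: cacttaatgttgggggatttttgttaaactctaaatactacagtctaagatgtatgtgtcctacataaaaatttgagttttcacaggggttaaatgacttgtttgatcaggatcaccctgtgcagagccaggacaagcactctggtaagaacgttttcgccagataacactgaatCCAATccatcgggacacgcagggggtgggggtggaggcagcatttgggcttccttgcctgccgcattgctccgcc
St6gal1 start 2, chr16:23225771-23226020, plus: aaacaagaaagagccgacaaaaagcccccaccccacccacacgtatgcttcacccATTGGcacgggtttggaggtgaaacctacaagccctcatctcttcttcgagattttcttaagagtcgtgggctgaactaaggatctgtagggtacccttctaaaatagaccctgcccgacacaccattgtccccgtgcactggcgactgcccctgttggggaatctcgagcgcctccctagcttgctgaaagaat
St6gal1 start 3, chr16:23290220-23290469, plus: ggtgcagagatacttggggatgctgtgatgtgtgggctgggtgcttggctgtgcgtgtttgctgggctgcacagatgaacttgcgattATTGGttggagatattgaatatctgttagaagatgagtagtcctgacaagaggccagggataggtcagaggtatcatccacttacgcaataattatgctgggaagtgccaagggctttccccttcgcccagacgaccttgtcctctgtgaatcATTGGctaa
St3gal6 start 1, chr16:58524254-58524503, minus: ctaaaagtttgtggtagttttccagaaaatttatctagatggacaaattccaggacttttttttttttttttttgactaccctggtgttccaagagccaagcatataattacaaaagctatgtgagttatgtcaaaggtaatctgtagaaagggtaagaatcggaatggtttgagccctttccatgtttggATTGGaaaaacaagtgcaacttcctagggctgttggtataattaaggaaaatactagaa
St6galnac4, chr2:32586828-32587077, plus: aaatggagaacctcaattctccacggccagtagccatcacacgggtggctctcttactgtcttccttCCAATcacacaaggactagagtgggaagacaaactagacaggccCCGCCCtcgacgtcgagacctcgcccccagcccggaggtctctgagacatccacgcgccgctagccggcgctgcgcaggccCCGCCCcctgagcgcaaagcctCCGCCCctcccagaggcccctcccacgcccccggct

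Of 32851 promoter windows of 250 bases, 32.7% held GGGCGG and 33.8% held CCAAT on either strand. In the 5 printed windows the motifs share no bases. The 3 St6gal1 windows held no GGGCGG and 1, 1 and 2 copies of CCAAT, with 6, 10 and 5 CpG dinucleotides. The St3gal6 window at start 1 had 1 CpG (7.87% of windows had fewer), 1 CCAAT and no GGGCGG, but the window at its start 2, not printed because it overlaps an exon, had 16 CpG and 4 copies of GGGCGG, of which some share a base. The St6galnac4 window held 3 copies of GGGCGG, 1 CCAAT and 19 CpG. Among the other members, windows of St3gal3, St3gal4 and St3gal5 had 18, 25 and 25 CpG with 2, 3 and 2 copies of GGGCGG, and that of St6galnac6 had 2 CpG and neither motif. Of the windows not printed, that of St3gal4 lies over its 250 bases in an exon of 4930581F22Rik, and that of St6galnac6 over 240 bases in an exon of St6galnac4. None of the 5 printed windows held TATAAA, TGATGNAAN (a C/EBP-ATF element) or CACGTG, which 12.4%, 3.44% and 6.02% of all windows held.

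After the knockdown, 6 of the 9 tested sialyltransferases rose (St3gal6, St6gal1, St3gal4, St6galnac6, St3gal1 and St6galnac4) and 2 fell (St3gal2 and St3gal5). Over all 11568 genes tested, 30.1% were called higher and 29.6% lower, 59.7% in all. The median log2 fold change of the 9 was 0.22 against -0.01 for all genes. The groups did not overlap for 8 of the 9, against 63.2% of all genes. The tenth, St6galnac5, which makes a ganglioside of nervous tissue, was too low to test, with 0 counts in each shPHGDH library and 1, 2 and 1 in the shSCR libraries.

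St6gal1 had 35.8, 35.6 and 36.0 CPM in shPHGDH and 19.97, 22.5 and 21.4 CPM in shSCR. All 3 knockdown libraries were higher than every control and lay within a narrow range. Its means were 35.8 ± 0.173 and 21.3 ± 1.26 CPM (SD, n = 3 each), a 1.68-fold rise (log2 0.75, SE 0.06, edgeR adjusted p = 5.13e-11). St3gal6 stood at 12.3, 11.1 and 8.80 CPM in shPHGDH and at 5.198, 6.05 and 4.43 CPM in shSCR. The knockdown libraries were spread more widely but did not reach the controls. The rise was 2.03-fold (log2 1.02, SE 0.13, edgeR adjusted p = 1.48e-07), on 513 counts in shPHGDH and 265 in shSCR. Within lane 6, which holds all 3 shPHGDH libraries and shSCR 3, edgeR gave log2 0.74 for St6gal1 (adjusted p = 1.34e-11) and 1.25 for St3gal6 (adjusted p = 2.7e-10). The lone shSCR library of that fit is assumed to vary like the shPHGDH libraries. Marker sums did not overlap between the groups for any of the 4 lists. Epithelial markers summed to 3250 to 3270 CPM in shPHGDH and 3420 to 3520 CPM in shSCR. Sums of the other lists were low but higher in shPHGDH: 6 to 6.92 CPM in shPHGDH and 4.45 to 5.06 CPM in shSCR for endothelial markers (1 of 10 over 1 CPM in each library), 10 to 11 and 6.41 to 8.14 CPM for fibroblast markers, and 13.6 to 15.7 and 9.13 to 10.8 CPM for leukocyte markers. Their part in these results was not tested. In bulk samples, fewer cells of a type and less RNA per cell cannot be told apart.

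**Figure D1:**
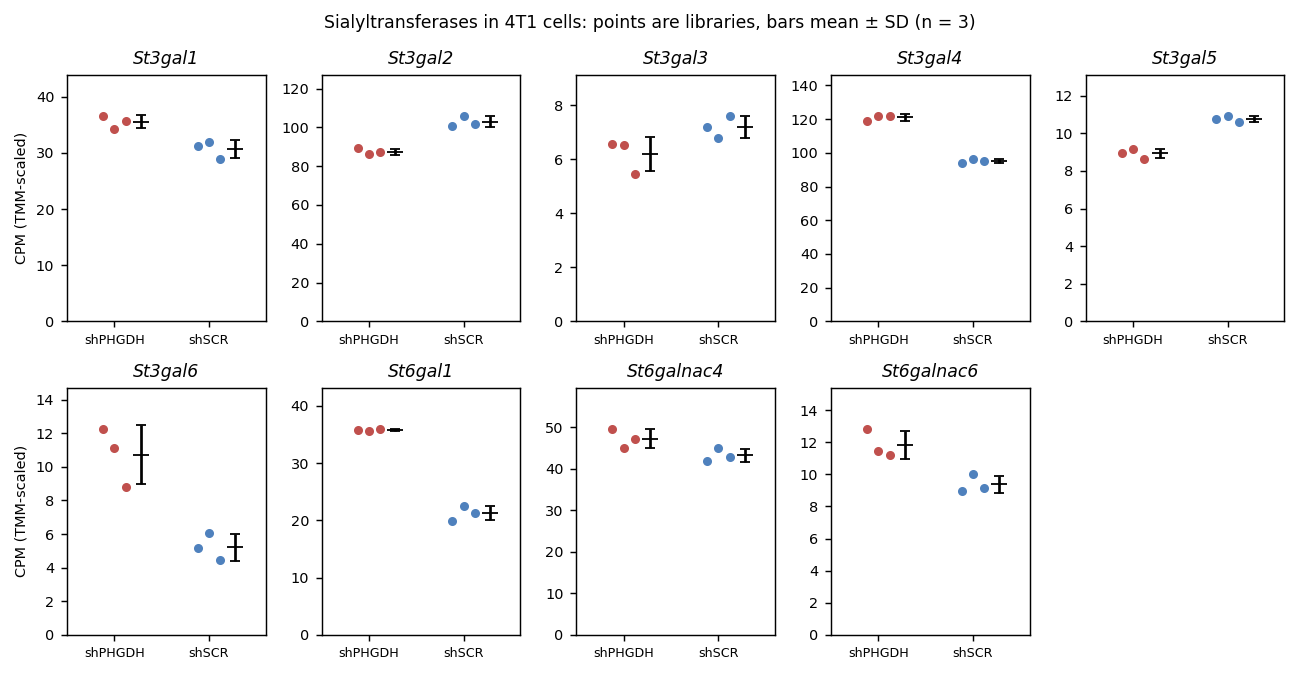
CPM of 9 sialyltransferases in each 4T1 library, with the mean ± SD of 3 libraries as a black bar, shPHGDH left and shSCR right. St6gal1 and St3gal6 lie higher in all 3 shPHGDH libraries, and St6galnac4 is the panel in which the groups overlap.

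The other enzymes of the lactosamine group moved less. St3gal4, which helps to build selectin ligands in mice, had 119, 122 and 122 CPM in shPHGDH and 94.1, 96.6 and 95.3 CPM in shSCR. That is a 1.27-fold rise (log2 0.34, SE 0.03, edgeR adjusted p = 7.11e-10), with no overlap. St3gal3, which acts on the same kind of chain, had 6.57, 6.52 and 5.46 CPM in shPHGDH and 7.18, 6.80 and 7.61 CPM in shSCR. The groups did not overlap, but the gene missed the threshold (log2 -0.24, SE 0.12, edgeR adjusted p = 0.0824) and passed it with library totals as the scaling (0.0418).

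St3gal1 and St3gal2, which add sialic acid to the galactose of O-glycans, went in opposite directions. St3gal1 had 36.6, 34.3 and 35.8 CPM in shPHGDH and 31.3, 31.9 and 28.9 CPM in shSCR (log2 0.22, SE 0.06, edgeR adjusted p = 0.00263). St3gal2, also an enzyme of gangliosides, had 89.2, 86.2 and 87.1 CPM in shPHGDH and 101, 106 and 102 CPM in shSCR (log2 -0.23, SE 0.03, edgeR adjusted p = 1.72e-06). St3gal5, the GM3 synthase that begins the ganglioside series, fell to 8.97, 9.15 and 8.65 CPM in shPHGDH, against 10.7, 10.9 and 10.6 CPM in shSCR. Its call (log2 -0.27, SE 0.09, edgeR adjusted p = 0.0143) missed the threshold, at a like size, with DESeq2 (log2 -0.27, adjusted p = 0.132), with sequencing lane in the model (-0.25, 0.107), within lane 6 (-0.25, 0.111) and without shPHGDH replicate 3 (-0.25, 0.0599).

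Of the ST6GalNAc genes, St6galnac6, which sialylates gangliosides, rose, with 12.8, 11.5 and 11.2 CPM in shPHGDH and 8.96, 9.997 and 9.17 CPM in shSCR (log2 0.33, SE 0.09, edgeR adjusted p = 0.00382). St6galnac4, which adds a second sialic acid to sialylated core O-glycans, had 49.6, 44.95 and 47.2 CPM in shPHGDH and 41.9, 44.99 and 42.8 CPM in shSCR. Its groups overlapped, and the edgeR call (log2 0.13, SE 0.05, adjusted p = 0.0319) was lost in 9 of 13 alternatives. The adjusted p ranged from 0.0142 to 0.136, and it was above 0.05 without shSCR replicate 1 (0.118), shSCR replicate 3 (0.0837), shPHGDH replicate 1 (0.136) or shPHGDH replicate 3 (0.0661). St6galnac4 and St6galnac6 are neighbours on chromosome 2.

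Per length of exon, the order in shPHGDH ran from St3gal4 (41.4 CPM per kb) through St3gal2 (17.4), St6galnac4 (7.29), St6gal1 (7.28), St3gal1 (5.19), St3gal5 (3.41), St6galnac6 (2.46), St3gal3 (2.23) and St3gal6 (1.74). In shSCR St3gal4 (32.6 CPM per kb) and St3gal2 (20.4) led again. There the range of St6gal1 (mean 4.33) overlapped those of St3gal1 (4.48) and St3gal5 (4.11). In shPHGDH St6gal1 overlapped only its neighbour St6galnac4 and was clear of St3gal1. Annotated exon length stands in for transcript length here, which is not known for these cells.

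Some members had fold changes close to those of the genes around them. The 50 tested genes around each member gave a median log2 fold change of 0.29 at St3gal1, -0.24 at St3gal2 and -0.23 at St3gal3, close to the members' own 0.22, -0.23 and -0.24. St6gal1 (log2 0.75) and St3gal6 (1.02) stood apart from their surroundings, whose medians were 0.13 and 0.12. St3gal4 (log2 0.34) had a median of 0.11 around it, St3gal5 (-0.27) of -0.03, St6galnac4 (0.13) of -0.01 and St6galnac6 (0.33) of -0.02. The part that regional shifts have in these changes was not tested.

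**Figure D2:**
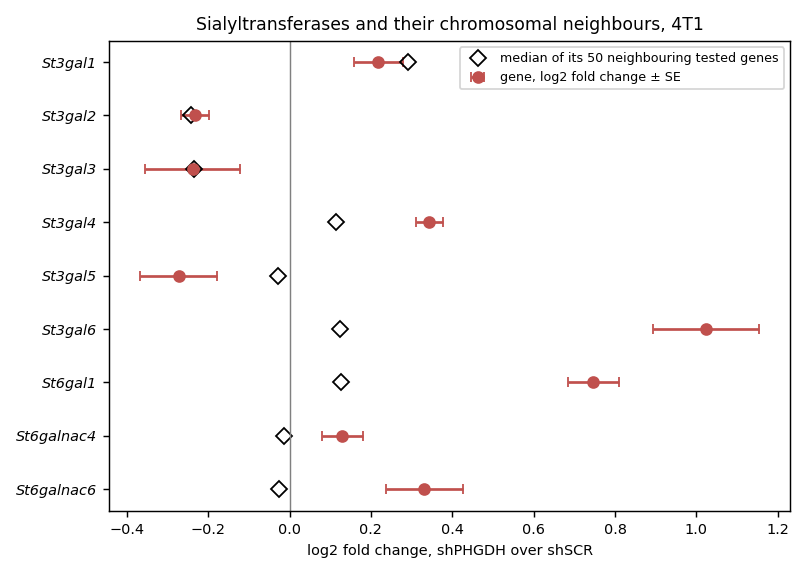
log2 fold change of each sialyltransferase in shPHGDH over shSCR (points, with SE) and the median of its 50 neighbouring tested genes (diamonds). St3gal1, St3gal2 and St3gal3 sit near their diamonds, and St3gal6 and St6gal1 lie far to the right of theirs.

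St3gal6, St3gal4 and St6gal1 share exonic bases with genes on the opposite strand, and the strand setting of the authors' counting is not given in the sources used here. Dcbld2, which overlaps St3gal6 by 1603 exonic bases, had 269, 250 and 271 CPM in shPHGDH and 218, 207 and 208 CPM in shSCR (log2 0.32, edgeR adjusted p = 1.8e-09). The transcript 4930581F22Rik at St3gal4 had 4.61, 4.30 and 4.28 CPM in shPHGDH and 4.24, 4.42 and 3.54 CPM in shSCR. Reads from overlapping genes cannot be told apart without strand.

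Other genes of sialic acid metabolism moved in both directions, beside 30.1% of all genes tested called higher and 29.6% lower. Of 9 tested genes that supply activated sialic acid, 2 rose and 3 fell: Gnpnat1 rose (log2 0.60), and the entry enzyme Gne (-0.29) and the synthase Nans (-0.21) fell. Of 6 tested sialidase and esterase genes, 3 rose and 1 fell, Neu3, a plasma membrane sialidase of gangliosides (-0.65). Among 14 N-glycan branching and galactosylation genes 7 rose and 2 fell, with Fut8 (0.75) and Mgat5 (0.72), which makes branches that carry lactosamine, at the top. The mucin O-glycan list had 4 rises and 2 falls among 11 genes, and the ganglioside list 3 and 4 among 12, with Neu3 in both this list and the sialidase list. Hexa, a lysosomal hexosaminidase subunit that degrades GM2, had 68, 51 and 88 counts in shPHGDH and 0 in each shSCR library. Gcnt1, which starts core branches of O-glycans, had 48, 33 and 59 counts in shPHGDH and 1, 0 and 1 in shSCR. Both passed the count filter only through shPHGDH, where they are high, so no call is given for them. The rises counted above include them. In shPHGDH Hexa had 4.3, 4.06 and 4.33 CPM and Gcnt1 3.03, 2.63 and 2.9 CPM. In 4T1 grown alone, from the co-culture set and normalized separately, Hexa had 11.7 CPM and Gcnt1 4.32 CPM (1 library). Fucosylation genes gave 3 rises and 4 falls among 8, led by Fut11 (1.02). Of the other sialyltransferases 1 was tested, and it was not called. St8sia4, too low to test, had 6, 9 and 5 counts in shPHGDH and 0 in each shSCR library.

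In MDA-MB-231 the libraries labelled PHGDH-overexpressing had 4 of the 10 members higher (ST6GALNAC5, ST3GAL4, ST6GAL1 and ST6GALNAC6) and 1 lower (ST3GAL6). Among 17663 genes tested, 21.6% were called higher and 22.9% lower, 44.5% in all. The median log2 fold change was 0.22 over the 10 and -0.01 over all genes. The groups did not overlap for 6 of the 10, against 52.5% of all genes. The counts of higher and of non-overlapping members include ST6GALNAC5, which passed the count filter only through the labelled libraries.

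ST6GALNAC5, low in both groups and known from brain metastasis of breast cancer, had 4.64, 3.97 and 4.30 CPM in the labelled libraries, against 0.494, 0.750 and 0.952 CPM in the controls. Every labelled library was above every control, by a wide margin. The labelled libraries held 264 counts of ST6GALNAC5 and the controls 46. It passed the count filter only through the labelled libraries, where it is high, so no call is given for it. ST3GAL6 had 24.4, 23.1 and 23.9 CPM in the labelled libraries and 43.5, 41.2 and 39.8 CPM in the controls. The labelled libraries were all below the controls, 1.75-fold lower (log2 -0.80, SE 0.08, edgeR adjusted p = 1.47e-08).

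ST6GAL1 had 12.3, 11.1 and 11.3 CPM in the labelled libraries and 8.07, 7.95 and 8.97 CPM in the controls (log2 0.48, SE 0.11, edgeR adjusted p = 0.00122). The labelled libraries stayed above the controls. ST3GAL4 had 52.7, 45.9 and 55.8 CPM in the labelled libraries and 36.6, 36.4 and 35.3 CPM in the controls (log2 0.51, SE 0.08, edgeR adjusted p = 1.27e-05). ST6GALNAC6 had 49.9, 45.9 and 55.8 CPM in the labelled libraries and 42.0, 42.1 and 39.8 CPM in the controls (log2 0.29, SE 0.08, edgeR adjusted p = 0.00397).

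ST3GAL4 and ST6GALNAC6 share an oddity of the deposited table: both have a count of 1064 in labelled library 2 and again 1064 in labelled library 3. Of 8739 genes with at least 300 counts in all 6 libraries, 8 had equal counts in that pair of libraries, and these are 2 of the 8. The other pairs of libraries within a group had 3 to 56 such genes, with 0 members among them. The value itself is not unusual, being held by 7 and 5 genes in those libraries, and the origin of the repeat was not tested. Without both libraries, an alternative chosen after seeing the data, ST3GAL4 (log2 0.55, edgeR adjusted p = 0.000743) and ST6GALNAC6 (0.28, adjusted p = 0.0327) stayed called. That fit has 1 labelled library, which is assumed to vary like the controls.

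The 5 other members were not called. ST3GAL5 had 7.28, 8.68 and 7.50 CPM in the labelled libraries and 6.96, 5.65 and 6.31 CPM in the controls, groups that did not overlap (log2 0.31, SE 0.13, edgeR adjusted p = 0.0589), and passed the threshold without control replicate 1 (0.39, adjusted p = 0.0354). ST3GAL1 (log2 0.04, SE 0.07), ST3GAL2 (0.06, SE 0.08), ST3GAL3 (0.14, SE 0.09) and ST6GALNAC4 (0.14, SE 0.09) had overlapping groups. Epithelial markers summed to 1450 to 1630 CPM in the labelled libraries and 1060 to 1090 CPM in the controls, endothelial markers to 138 to 147 and 164 to 166 CPM, and fibroblast markers to 11.6 to 13.2 and 7.86 to 10.2 CPM. Those sums did not overlap, while leukocyte sums did (114 to 122 and 108 to 116 CPM), and their part in these results was not tested.

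**Figure D3:**
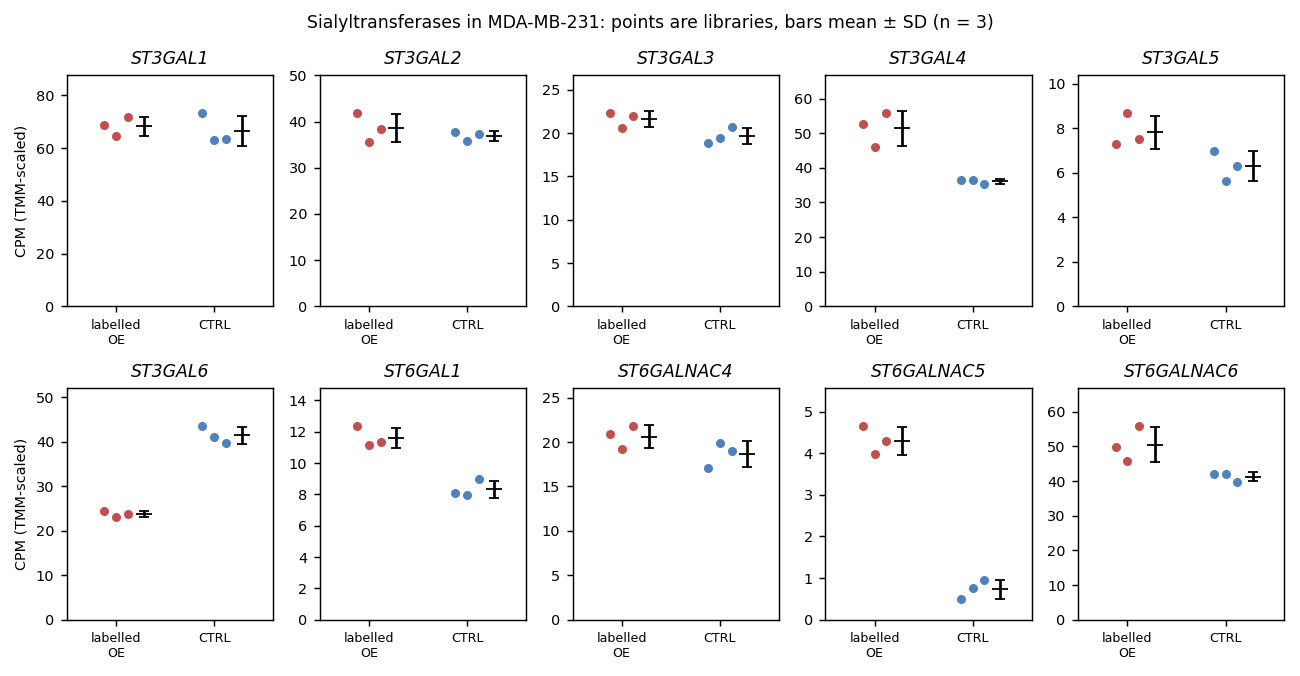
CPM of the 10 sialyltransferases in each MDA-MB-231 library, with the mean ± SD of 3 libraries as a black bar, libraries labelled PHGDH-overexpressing (OE) left and controls right. ST6GALNAC5 is higher in the labelled libraries and ST3GAL6 lower, with no overlap.

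The human lists moved as follows, beside 21.6% of all genes tested called higher and 22.9% lower. Ganglioside genes had 7 higher and 3 lower among 12, with B4GALNT1, the GM2 synthase, at log2 1.47. Mucin O-glycan genes had 2 higher and 7 lower among 12, with C1GALT1, the core synthase, at -0.80. Sialic acid supply had 2 higher and 4 lower among 11, with the CMP-sialic acid transporter SLC35A1 at -0.55. Branching genes had 3 higher and 6 lower among 16, sialidase and esterase genes 3 higher and 0 lower among 5, and fucosylation genes 3 higher and 1 lower among 10. Of 3 other sialyltransferases tested 2 were higher, ST8SIA1 (0.77), the GD3 synthase, and ST6GALNAC2. The latter was below the 1 CPM for naming and was picked after its values were seen. ST6GALNAC2 passed the count filter only through the labelled libraries, where it is high, so no call is given for it, though the count includes it.

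Set side by side, St6gal1, St3gal4 and St6galnac6 were called higher in both shPHGDH and the labelled MDA-MB-231 libraries, and St3gal6 was called higher in shPHGDH and lower in the labelled libraries. The 2 experiments differ in species and share no library, and a difference between them was not tested.

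In the co-culture set 9 members had counts in all 7 libraries, and their order by level differed between the 3 lines. Per exon length St3gal5 (21.4 CPM per kb, 2 libraries) led in EMT6.5, St3gal4 (21.9, 2 libraries) in 4T1, where its range overlapped St3gal2, and St6gal1 (11.9, 3 libraries) in Bend3. In Bend3 St6gal1, St3gal2, St3gal5, St3gal1 and St6galnac4 did not separate by their spread. St6galnac5 had 0 counts in all 7 libraries, which at 3 counts allows up to 0.391 to 0.703 CPM.

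In the additive fit of line and culture over the 7 libraries, with 3 residual degrees of freedom, Bend3 differed from 4T1 in 2 of 9 members, from EMT6.5 in 2, and 4T1 differed from EMT6.5 in 2. Of 13092 genes tested, 34.9% were called between Bend3 and 4T1, 35.1% between Bend3 and EMT6.5, and 10.4% between 4T1 and EMT6.5. By direction, 0 members were higher and 2 lower in Bend3 than in 4T1 (17.9% and 17% of genes), 1 and 1 in Bend3 than in EMT6.5 (18.2% and 16.9%), and 1 and 1 in 4T1 than in EMT6.5 (4.94% and 5.42%). The 3 contrasts share libraries. Without 4T1 with Bend3, St3gal5 had log2 3.23 for Bend3 against 4T1 and -4.25 for 4T1 against EMT6.5. That fit leaves 1 library of 4T1, which is assumed to vary like the others.

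St6galnac6 differed in all 3 contrasts. It had 6.81, 8.44 and 3.86 CPM in Bend3 (with 4T1, with EMT6.5 and alone), against 20.3 and 8.21 CPM in 4T1 (with Bend3 and alone) and 48.8 and 50.1 CPM in EMT6.5 (with Bend3 and alone). Bend3 against EMT6.5 gave log2 -3.17 (SE 0.40, edgeR adjusted p = 0.000482), which stayed called in every alternative run. Bend3 against 4T1 (log2 -1.23, SE 0.40, edgeR adjusted p = 0.0415) was lost without Bend3 alone (0.114), 4T1 with Bend3 (0.345), Bend3 with 4T1 (0.102) or Bend3 with EMT6.5 (0.0657), and with no culture term (0.0828). 4T1 against EMT6.5 (log2 -1.95, SE 0.43, edgeR adjusted p = 0.0244) was lost without 4T1 alone (0.0889) or EMT6.5 alone (0.221), and with no culture term (0.051).

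St3gal4 was lower in Bend3 than in 4T1 (log2 -1.76, SE 0.43, edgeR adjusted p = 0.014), and the call was lost without 4T1 with Bend3 (-0.81, adjusted p = 0.278). St6galnac4 was higher in Bend3 than in EMT6.5 (log2 0.80, SE 0.26, edgeR adjusted p = 0.0407), with 61.4, 51.2 and 68.9 CPM in Bend3 and 32.9 and 39.5 CPM in EMT6.5. That call was lost in 8 of 12 alternatives, among them without EMT6.5 with Bend3 (0.167), EMT6.5 alone (0.218), Bend3 with 4T1 (0.184), Bend3 with EMT6.5 (0.115) or Bend3 alone (0.0879). St3gal6 was higher in 4T1, at 26.3 and 28.7 CPM, than in EMT6.5, at 8.14 and 8.37 CPM (log2 1.74, SE 0.38, edgeR adjusted p = 0.0233), and lost the call without 4T1 alone (0.0597), EMT6.5 alone (0.166), Bend3 with 4T1 (0.0505), EMT6.5 with Bend3 (0.109) or Bend3 with EMT6.5 (0.0547).

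**Figure D4:**
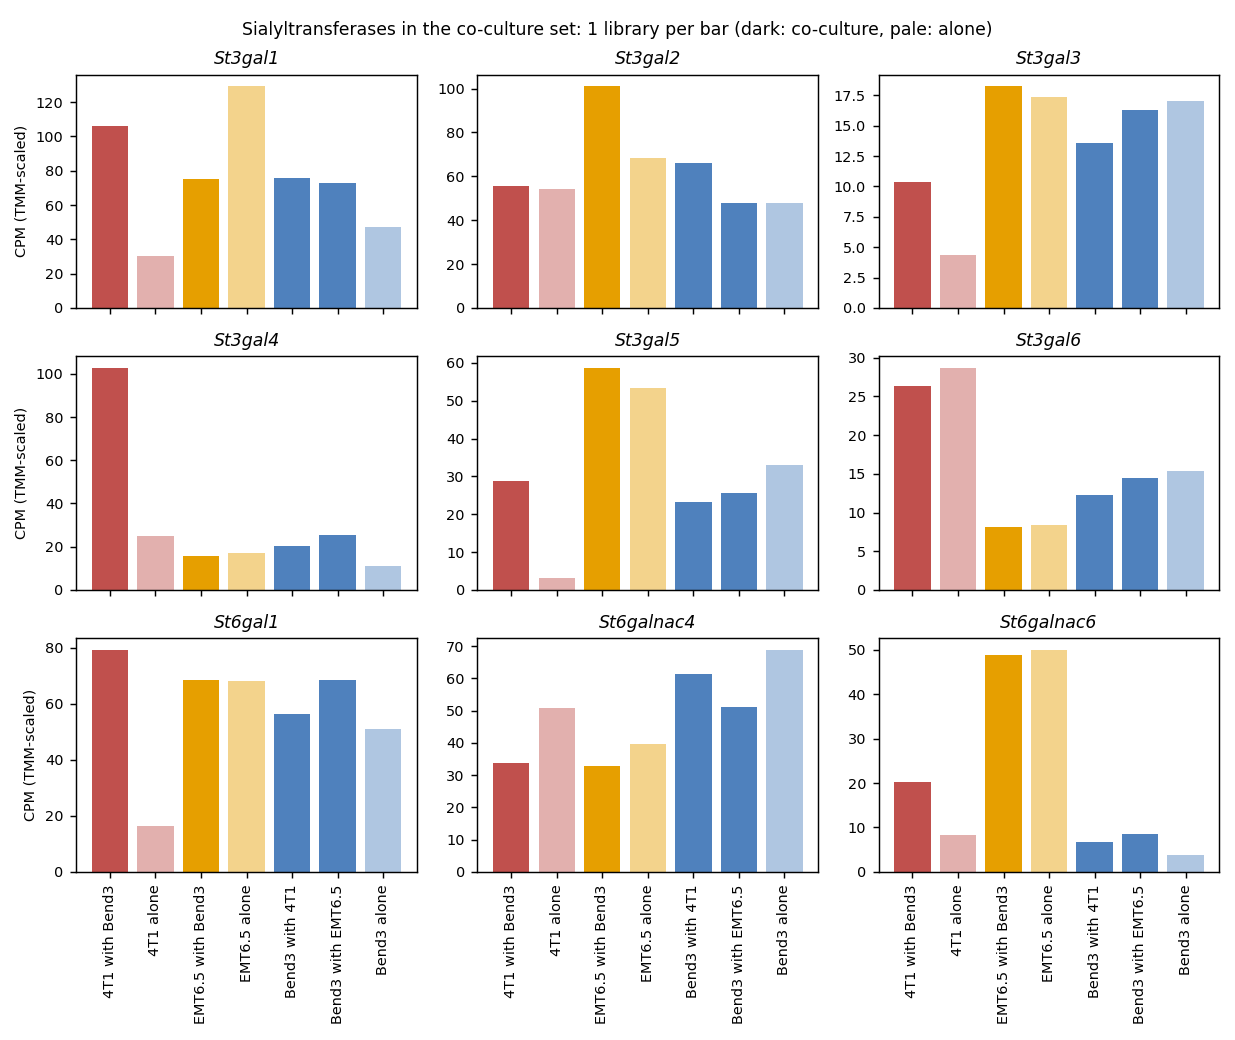
CPM of 9 sialyltransferases in the 7 co-culture set libraries, 1 library per bar, co-culture in dark and cells alone in pale colours (4T1 red, EMT6.5 orange, Bend3 blue). In 6 of 9 panels 4T1 with Bend3 is more than 2-fold above 4T1 alone.

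Of the 10 other sialyltransferases listed, 3 passed the count filter. St8sia4, a polysialyltransferase, had 13.4, 11.9 and 11.3 CPM in Bend3 (with 4T1, with EMT6.5 and alone), against 0.462 and 0 CPM in 4T1 and 0 and 1.23 CPM in EMT6.5. St6galnac3 likewise stood at 3.49, 6.42 and 4.99 CPM in Bend3 and at or below 0.231 CPM in the tumour cells. Both passed the count filter only through Bend3, where they are high, so no call is given for them. St6galnac2 had 0.184, 0.367 and 0 CPM in Bend3, against 4.62 and 0.864 CPM in 4T1 and 10.2 and 7.88 CPM in EMT6.5, and passed only through the tumour cells. Ganglioside genes had 7 higher and 2 lower in Bend3 among 12 against 4T1, and 4 higher and 1 lower against EMT6.5. Branching genes had 5 and 2 among 15 against 4T1 and 8 and 4 against EMT6.5, and supply genes 1 and 3, and 1 and 4, among 9. Over all genes tested, 34.9% were called against 4T1 and 35.1% against EMT6.5. The list counts include Gfpt2, the higher supply gene, and Neu3, which passed the count filter only through Bend3, where they are high. They also include B4galnt1, which passed only through the tumour cells, and the branching gene B3gnt8, which passed only through EMT6.5. No call is given for these genes. The list counts were not limited to genes that passed the filter in both lines compared.

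In 4T1 sorted from co-culture, 6 of the 9 members were more than 2-fold above 4T1 alone (St3gal5, St6gal1, St3gal4, St3gal1, St6galnac6 and St3gal3) and 0 were more than 2-fold below. Each side is 1 library, so there is no test, and the intervals cover counting error only. Among 10132 genes (mean over the pair 5 CPM or more), 25.5% passed 2-fold, 14.5% up and 11% down. The median log2 ratio was 1.31 over the members and 0.04 over all genes.

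St6gal1 had 344 counts and 79.4 CPM in 4T1 with Bend3, against 76 counts and 16.4 CPM in 4T1 alone (4.84-fold, 95% exact counting interval 3.76 to 6.28). St3gal5 had 125 counts and 28.8 CPM, against 14 counts and 3.02 CPM (9.54-fold, 5.48 to 18.0). St3gal4 had 103 CPM, against 24.8 CPM (4.14-fold, 3.37 to 5.13). These were the 3 largest ratios. St3gal1 (3.51-fold, 2.90 to 4.27), St6galnac6 (2.47-fold, 1.67 to 3.72) and St3gal3 (2.40-fold, 1.39 to 4.30) followed. St3gal2 (1.03-fold, 0.856 to 1.23) and St3gal6 (0.916-fold, 0.707 to 1.18) had intervals that span 1, and St6galnac4 was lower (0.664-fold, 0.536 to 0.819).

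The sums of all 4 marker lists were higher in 4T1 with Bend3 than in 4T1 alone. They were 179 and 66.1 CPM for endothelial markers, 49.2 and 11.7 CPM for fibroblast markers, 15 and 9.07 CPM for leukocyte markers, and 1760 and 1270 CPM for epithelial markers. The endothelial sum was 1.52% of the 11800 CPM in the Bend3 partner, whose own levels were 56.3 CPM of St6gal1 and 23.17 CPM of St3gal5. The part of other cells in these ratios was not tested. The antisense transcript 4930581F22Rik at St3gal4 had 27.9 CPM with Bend3 and 7.78 CPM alone, and Phgdh had 4.85 and 14.0 CPM (0.345-fold). Phgdh was 0.331-fold in EMT6.5 with Bend3, at 2.03 CPM, against 6.15 CPM in EMT6.5 alone.

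In EMT6.5 with Bend3, 0 of 9 members passed 2-fold, against 11.6% of 10206 genes (5.04% up and 6.6% down). St6gal1 had 68.5 CPM with Bend3 and 68.3 CPM alone (1.00-fold, 0.874 to 1.15), and St3gal5 58.8 and 53.3 CPM (1.10-fold, 0.947 to 1.28). St3gal2 was higher, at 101 CPM with Bend3 and 68.2 CPM alone (1.49-fold, 1.31 to 1.68). St3gal1 was lower, at 75.3 CPM with Bend3 and 130 CPM alone (0.581-fold, 0.514 to 0.654).

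In Bend3 with 4T1, 0 of 9 members passed 2-fold (4.9% of 10075 genes did, 2.91% up and 2% down), and in Bend3 with EMT6.5 2 did, both up (4.42% of 10069, 2.34% up and 2.08% down). St3gal4 had 25.5 CPM with EMT6.5 and 20.23 CPM with 4T1, against 11.1 CPM alone, ratios of 2.29 (1.65 to 3.25) and 1.82 (1.29 to 2.60). St6galnac6 had 8.44 and 6.81 CPM, against 3.86 CPM alone (2.19, 1.23 to 4.07, and 1.77, 0.969 to 3.34). Both ratios use the same library of Bend3 alone.

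**Figure D5:**
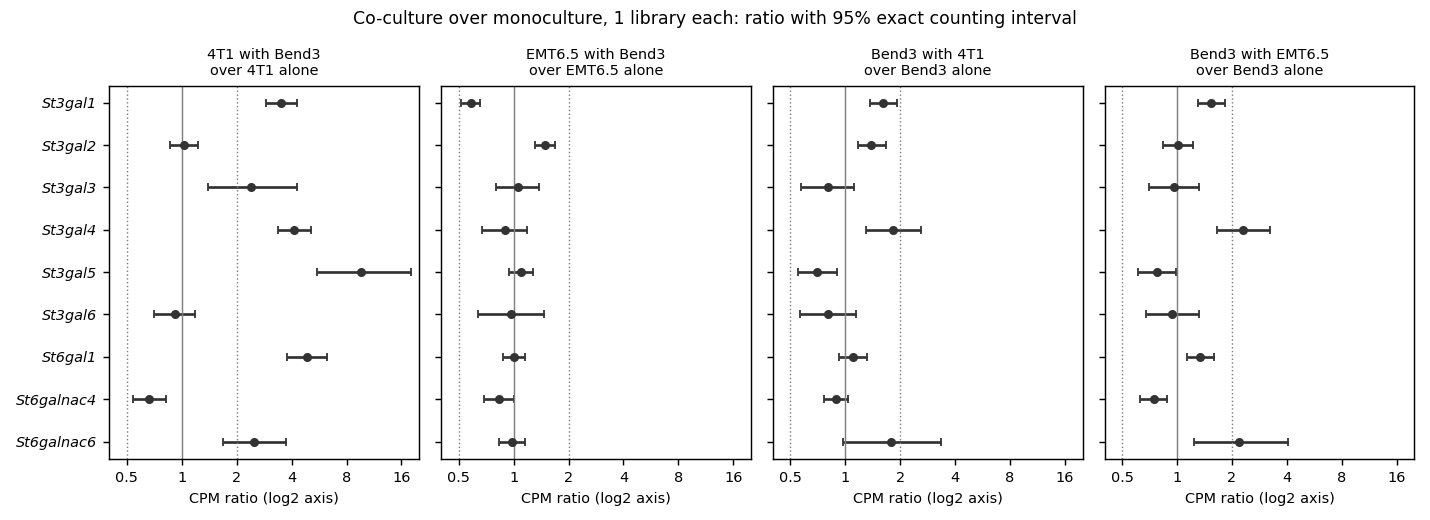
CPM ratio of each co-cultured library to the same cells alone, with 95% exact counting intervals on a log2 axis and dotted lines at 0.5 and 2. In the 4T1 panel 6 members lie right of 2, against 0 in EMT6.5.

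A shared co-culture effect over the 3 lines was called for 0 of 9 members and for 1 of 13092 genes (0.00764%) by edgeR, with 1 member, St3gal4, at an unadjusted p under 0.05 (log2 1.00, SE 0.40, adjusted p = 0.826), and 742 genes at that level. DESeq2 called 73 genes and 0 members. Fitted apart in the tumour lines and in Bend3, chosen after seeing the data, the effect was called for 0 members in each (4 of 13092 genes in the tumour lines and 0 in Bend3), and the difference between them was called for 0 of 13092 genes, St3gal5 giving log2 -1.88 (SE 1.01, edgeR adjusted p = 0.751).

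Among other genes of the pathway in 4T1 with Bend3, 1 supply gene was past 2-fold up and 2 down among 8. Branching genes had 4 up and 1 down among 12, and ganglioside genes 3 up and 0 down among 10. Sialidase and esterase genes had 2 up and 0 down among 4, mucin O-glycan genes 1 and 2 among 9, and fucosylation genes 1 and 1 among 7. Of all 10132 genes, 14.5% were past 2-fold up and 11% down. Cmas, which makes CMP-sialic acid, had 102 CPM in 4T1 with Bend3 and 43.2 CPM alone. Gne had 9.46 CPM with Bend3 and 21.6 CPM alone, and in EMT6.5 9.56 CPM with Bend3 and 32.7 CPM alone.

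Over the 7 libraries the genes whose log2 CPM ran most like St6gal1, among 10746 averaging 5 CPM or more, were Pspc1 (Pearson r 0.9959), Man1c1 (0.9759) and Abhd16a (0.9728), with 77 genes above 0.9. The libraries share cell lines, and 4T1 alone, the one low library of St6gal1, also had the lowest level of the 3 genes.

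The 4T1 cells grown without Bend3 can be set side by side across experiments. St3gal4 averaged 95.3 CPM in shSCR and had 24.8 CPM in 4T1 alone, and St3gal6 5.22 CPM in shSCR and 28.7 CPM in 4T1 alone. In the same order, St3gal2 had 103 and 54.2 CPM, St3gal3 7.2 and 4.32 CPM, and St3gal5 10.7 and 3.02 CPM. Closer were St3gal1 (30.7 and 30.2 CPM), St6gal1 (21.3 and 16.4 CPM), St6galnac4 (43.2 and 50.8 CPM) and St6galnac6 (9.38 and 8.21 CPM). Those tables were normalized separately, so no test is given.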

How the data were processed

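RNA from cultured cells was sequenced in 19 libraries, from 1 µg of total RNA with a stranded mRNA kit and 50 base single-end reads, per the labels' protocols. The authors deposited raw gene counts; the submitters' processing notes name HTSeq, HISAT2 (2.1.0), Trim Galore (0.5.0) and GRCm38, while the human build, annotation and strand setting are not given in the sources used here. Lines that name no gene were left out. The knockdown table held 10 other library columns, not used here; the human table names its controls SCR, read as the control label.

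Members and gene lists were chosen with earlier results of these data known. Counts were tested with edgeR 4.0.16 in R 4.3.3 (TMM, filterByExpr, quasi-likelihood F-test, Benjamini-Hochberg over all genes), and DESeq2 1.42.0 was an alternative. A check on simulated counts covered only comparisons between a pair of groups. For the co-culture set it set Bend3 against the tumour cells, at a smaller spread than the data had. It does not cover the additive fit of line and culture. From the lists, at most the 4 called genes of largest change with a mean of at least 1 CPM were named. Single libraries were compared by CPM ratio with exact counting intervals, which, as no molecular identifiers were used, cover counting error only, as do floors of 3 counts. No pair of replicates was a copy; shPHGDH 1 stood apart (chi-square over degrees of freedom 14.2 and 19.8, against 1.73 between the other two). Lane 5 held shSCR 1 and 2 only. Gene positions came from GENCODE M21, which placed 96.5% of tested genes.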

Additional observations from a re-analysis of the deposited data

How the results depend on the processing

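Scaling, filter, DESeq2, each library left out, lane, culture term, fold and CPM minimum were varied. Of 696 alternative values for single genes 640 stayed on their side of the threshold, 35 lost a call, 21 gained one, and 0 called values changed sign. The knockdown had 2 members called lower, and 1 with DESeq2, with lane as a covariate, within lane 6, 1 to 2 with a library left out, and 3 (5 higher) with library totals. In the co-culture set the counts of called members rest on few libraries: leaving out 1 library gave 1 to 3 (Bend3 against 4T1), 1 to 4 (Bend3 against EMT6.5) and 0 to 6 (4T1 against EMT6.5), and the genes called ranged from 2327 to 5749 (Bend3 against EMT6.5), 280 to 2358 (4T1 against EMT6.5) and 0 to 17 (co-culture against monoculture). With no count filter, 1 member was called between Bend3 and EMT6.5, 4 between 4T1 and EMT6.5, and 6 genes for co-culture (73 with DESeq2); without the culture term, 1 and 1 members. At 1.5-fold, 1 member passed in EMT6.5 with Bend3 (1349 genes up and 1753 down of 10206) and 3 in Bend3 with 4T1 (915 and 807 of 10075). Without the labelled MDA-MB-231 libraries 2 and 3, an alternative chosen after seeing the data, 5235 genes were called, against 7864. In the co-culture set, leaving out a 4T1 or EMT6.5 library leaves 1 library of that line, which is assumed to vary like the others. The causes were not tested.

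Correlations of same-numbered deviations were 0, -0.035 and -0.055 in the knockdown and 0.038, 0.011 and -0.023 in MDA-MB-231. With few libraries per group, these cannot tell whether cultures were paired, which the labels do not say. With a replicate block, 7 members were called in the knockdown and 5 in MDA-MB-231; St6galnac4 lost its call (adjusted p = 0.0567, edgeR). Depth limits St6galnac5 in the mouse libraries and the counting intervals in co-culture.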
